A study of Mus musculus with 16 samples.

Results

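Talazoparib was compared with DMSO in mouse embryonic stem cells that express the thymine DNA glycosylase TDG, by single-strand break sequencing (SSB-seq). The comparison rests on 8 of the series' 16 libraries: 3 immunoprecipitated (IP) libraries and 1 input library for each treatment. The other 8 libraries repeat the design in Tdg knockout (KO) cells. Their lists are used below to show whether WT peaks and genes were listed there too, and where a difference between genotypes is stated. The cells, of strain C57BL/6JRj, are labelled wild type (WT here), and LIF was added to their serum-free 2i medium. The treated group received 5 nM talazoparib for 24 h, and the controls received DMSO for a time that the labels leave unstated. They describe a Tdg minigene that 4-OHT excises, 4-OHT itself being dissolved in DMSO, and do not say separately whether the WT cells were given it. Cells of 1 dish went into an extraction, and nothing states whether the libraries of a group came from separate cultures. Peak lists show where tags gather and not which genes are expressed, so neither the cell type nor the TDG status could be checked against marker expression.

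Talazoparib inhibits poly(ADP-ribose) polymerases (PARPs), of which PARP1 and PARP2 bind broken DNA, build ADP-ribose chains and recruit the single-strand break repair factors around XRCC1. It also holds these enzymes on the break. TDG removes thymine from G:T mismatches and the oxidised forms of 5-methylcytosine made by TET enzymes, and the base excision repair that follows passes through a single-strand break. In SSB-seq, E. coli DNA polymerase I starts at nicks and adds digoxigenin-labelled nucleotides, chain terminators stop it, and an antibody to digoxigenin pulls down the labelled fragments.

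Each treatment has 1 peak list, made by the authors from its 3 IP libraries together and 1 input library. No value exists per library, so no result below has a spread between replicates, and none has a test. Intervals are Wilson or Poisson 95% intervals that cover counting error only. A DMSO peak is called kept if it shares at least 1 bp with a talazoparib peak and lost otherwise, and a talazoparib peak with no such partner is called gained. These words describe the lists: a lost peak was not listed with talazoparib, which does not say that the DNA had no breaks there. A peak's signal is its normalized tag count, which is tags per 10000000 IP tags. Density is tags per bp divided by the mean of the same pooled library over the genome.

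The stretches shown here lie near the starts of the genes that lead each class described below, and leave out annotated UTRs. They come from the peak with the most tags per kb among lost promoters (Hjurp and Trpm8, which share it), from the Tdg promoter peak, from the leading gained promoter (Ldb1), and from the shared promoters with the largest rise in rank (Suv39h2), the largest fall (Trim45) and the highest mean rank over both lists (Alkbh5). Each is 200 bases of GRCm38.p6 (mm10), plus strand, written 5′ to 3′, with CpG dinucleotides in capitals because CpG content separates the classes. The coordinates in the same order are chr1:88277270-88277469, chr10:82630016-82630215, chr19:46045223-46045422, chr2:3475142-3475341, chr3:100922002-100922201 and chr11:60537696-60537895.
Hjurp and Trpm8: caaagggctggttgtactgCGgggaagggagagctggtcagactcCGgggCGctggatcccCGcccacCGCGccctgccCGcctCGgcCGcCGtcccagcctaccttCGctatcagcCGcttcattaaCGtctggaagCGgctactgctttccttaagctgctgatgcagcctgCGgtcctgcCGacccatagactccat
Tdg: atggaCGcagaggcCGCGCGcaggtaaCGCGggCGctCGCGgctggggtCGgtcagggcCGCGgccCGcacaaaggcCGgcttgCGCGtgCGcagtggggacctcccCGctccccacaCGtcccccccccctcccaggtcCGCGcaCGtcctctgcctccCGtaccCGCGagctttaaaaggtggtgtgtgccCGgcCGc
Ldb1: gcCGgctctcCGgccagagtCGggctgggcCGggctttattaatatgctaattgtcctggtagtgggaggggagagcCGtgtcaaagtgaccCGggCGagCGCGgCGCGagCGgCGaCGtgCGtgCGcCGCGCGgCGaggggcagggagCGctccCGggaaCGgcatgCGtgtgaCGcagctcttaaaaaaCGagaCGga
Suv39h2: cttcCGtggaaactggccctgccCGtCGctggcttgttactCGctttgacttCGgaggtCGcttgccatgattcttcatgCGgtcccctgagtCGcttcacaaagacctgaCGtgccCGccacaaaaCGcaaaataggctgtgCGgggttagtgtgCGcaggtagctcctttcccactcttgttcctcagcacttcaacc
Trim45: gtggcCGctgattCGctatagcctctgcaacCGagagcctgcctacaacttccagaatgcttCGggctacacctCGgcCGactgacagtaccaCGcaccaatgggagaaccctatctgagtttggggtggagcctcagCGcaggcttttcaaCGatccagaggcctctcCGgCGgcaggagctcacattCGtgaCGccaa
Alkbh5: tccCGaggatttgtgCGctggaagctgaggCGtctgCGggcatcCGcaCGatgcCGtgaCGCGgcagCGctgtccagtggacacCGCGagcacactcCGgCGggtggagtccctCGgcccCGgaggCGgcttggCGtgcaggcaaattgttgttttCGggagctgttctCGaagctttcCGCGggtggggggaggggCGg
The Tdg and Ldb1 stretches hold 27 CpG each and the Alkbh5 stretch 23. The Hjurp and Trpm8 stretch holds 16, and those of Suv39h2 and Trim45 hold 13 each. Lost and gained promoters are both represented among the most CpG-rich of the 6.

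With DMSO the list held 28243 peaks on chromosomes 1 to 19, and with talazoparib 15343. Of the DMSO peaks, 7974 were kept (28.2%, 27.7 to 28.8) and 20269 were lost (71.8% of the list). Of the talazoparib peaks, 8002 met a DMSO peak and 7341 were gained (47.8% of that list). The shares depend on how the lists are cut: with equal numbers of best-scoring peaks, 15343 from each list, 42.4% of DMSO peaks were kept and 57.4% of talazoparib peaks were gained. At a fold over input of at least 6 in both lists, 16.2% were kept and 86.7% gained, and with at least 3 input tags in both lists 22.3% were gained.

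Depth differed between the lists in the input and little in the IP. The pooled IP totals were 87.0 M tags with DMSO and 83.8 M with talazoparib, and the input totals were 38.1 M and 24.5 M. The median peak rested on 3.5 input tags with DMSO and 2 with talazoparib, and 30.8% and 60.5% of peaks had fewer than 3. Median peak length was 630 and 629 bp, and median IP density 2.00 and 2.12 times the genome mean. The lowest fold over input was 4 in both lists, which is the threshold a peak had to reach. Input depth and treatment cannot be told apart.

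Kept peaks were longer, denser and more often at gene starts than lost ones. Median length was 932.5 bp for kept DMSO peaks and 500 bp for lost ones, the shortest length in the list being common among the latter (56.3% of them, against 15.8% of kept peaks). The median normalized tag count was 11.2 for kept and 3.97 for lost peaks, and the median density 3.01 and 1.83 times the mean. Gained peaks were like lost ones in size, with a median length of 500 bp, 3.46 normalized tags and a density of 1.65. Input tags moved with these classes: the median was 8 at kept DMSO peaks, 3 at lost peaks and 1 at gained peaks, and 7.50%, 39.95% and 82.8% of them had fewer than 3. The part of input depth in the classes was not tested.

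Promoters reach here from 1 kb before an annotated start to 100 bp past it. They held 58.9% of kept DMSO peaks (57.8 to 59.9) and 18.9% of lost ones (18.4 to 19.5). Gained peaks resembled the lost ones, with 19.7% in promoters (18.8 to 20.6). That share was 51.0% when both lists were limited to peaks with at least 3 input tags, and 39.9% when both had to reach 2 times the mean density. Introns held 37.7% of lost, 17.2% of kept and 38.8% of gained peaks. Intergenic DNA held 29.6%, 13.6% and 29.8% in the same order, and exons 7.39%, 7.12% and 6.69%. Seen from the other side, 55.1% of promoter peaks in the DMSO list were kept, 27.5% of exonic ones, 16.7% at transcript ends, 15.3% of intergenic and 15.2% of intronic ones.

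**Figure D1:**
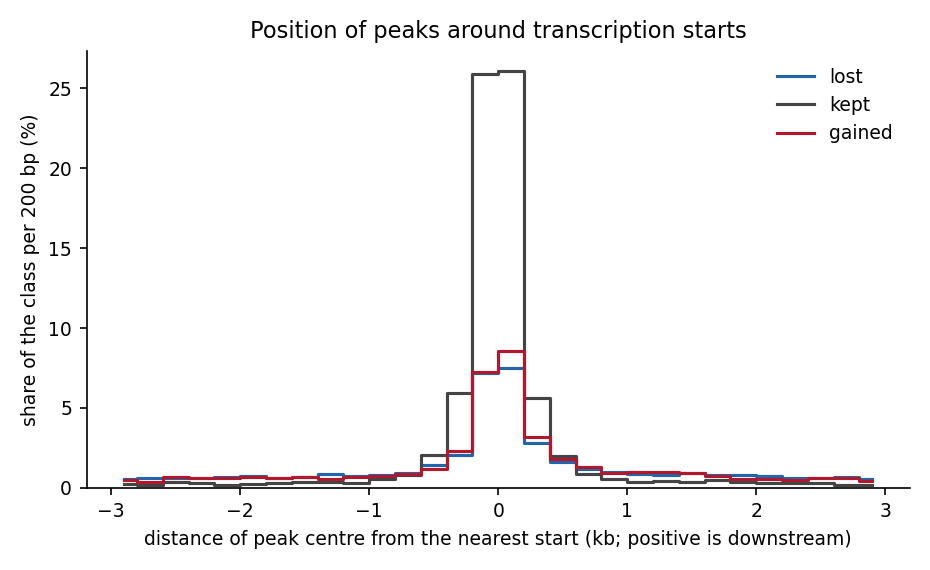
Share of lost, kept (DMSO list) and gained peaks in 200 bp steps of distance between the peak centre and the nearest annotated transcription start; each line is 1 class and sums over all distances to the whole class. The kept peaks reach 25.9% and 26.1% in the steps on either side of the start, while lost peaks reach 7.16% and 7.47% and gained peaks 7.25% and 8.55%.

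Around the start itself, 66.0% of kept peaks had their centre within 0.5 kb, against 21.1% of lost and 23.1% of gained peaks. The kept class fell off steeply: 4.19% lay 0.5 to 2 kb downstream and 3.69% upstream. More than 10 kb from any start were 34.3% of lost, 13.6% of kept and 36.5% of gained peaks. For lost peaks the nearest talazoparib peak was 18.3 kb away at the median. It lay within 20 kb of 52.7% of them, within 5 kb of 19.1% and within 1 kb of 5.28%. For gained peaks the nearest DMSO peak was 10.7 kb away at the median. It lay within 20 kb of 64.8% of them, within 5 kb of 31.9% and within 1 kb of 12.2%.

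Density and promoter position each went with being kept. The kept share rose from 5.44% in the lowest density class to 27.1% at 2 to 2.5 times, 63.9% at 3 to 4 times and 82.6% at 6 times or more. At equal density, promoter peaks were kept more often than others. The shares were 39.9% (37.4 to 42.5) and 22.6% (21.3 to 23.9) at 2 to 2.5 times, and 68.7% (66.7 to 70.6) and 54.1% (51.1 to 57.1) at 3 to 4 times. Among the densest peaks the kept share also differed with fold over input. Of DMSO peaks at 4 times the mean or more, 61.2% were kept where the fold lay between 4 and 4.5, and 93.8% where it was 8 or higher. Over DMSO peaks of any density the kept share did not rise throughout. It was 24.9% at a fold of 4 to 5, 33.7% at 6 to 8 and 14.5% at 12 or more.

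**Figure D2:**
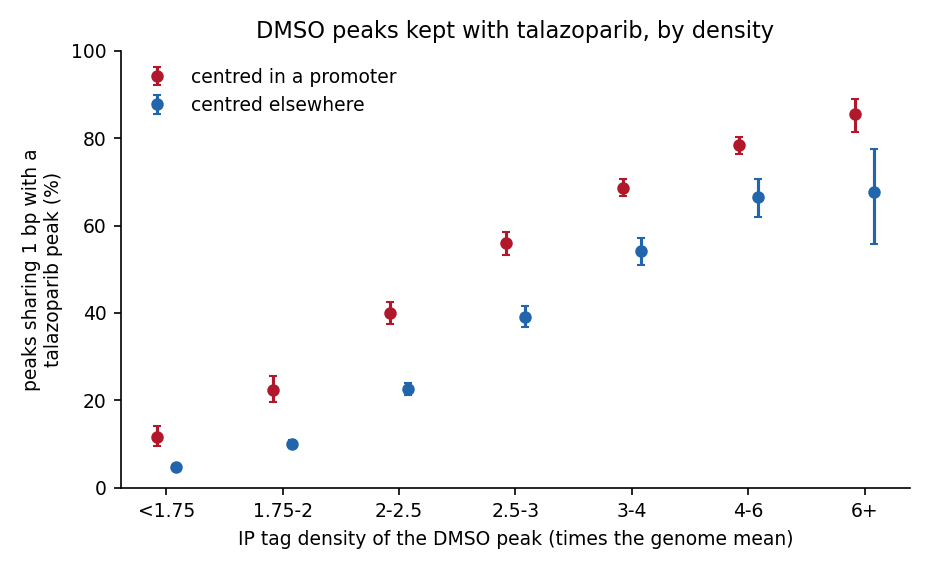
Share of WT DMSO peaks that share at least 1 bp with a talazoparib peak, by IP density of the DMSO peak in multiples of the genome mean, for peaks centred in a promoter and elsewhere; bars are Wilson 95% intervals. Promoter peaks lie above the others in each of the 7 density classes, from 11.7% against 4.81% in the lowest to 85.6% against 67.6% in the highest.

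CpG content separated the classes inside and outside promoters. Kept DMSO peaks had a median of 5.54 CpG per 100 bp and 57.8% GC, lost peaks 1.6 and 51.0%, and gained peaks 1.6 and 50.4%. Of promoter peaks with at least 5 CpG per 100 bp 66.0% were kept, and of those with fewer than 2, 18.9%. Outside promoters the shares were 48.0% and 12.2%. At a density of 2 to 3 times the mean the shares in promoters were 52.6% and 25.4%, and elsewhere 42.5% and 23.9%. Repeats, counted as soft-masked sequence, made up a median of 12.2% of lost, 8% of kept and 16.2% of gained peaks.

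Promoter architecture also divided the list. Peaks where starts on both strands met, as at divergent gene pairs, were kept in 72.3% of cases (69.9 to 74.6), and those with starts on 1 strand in 51.8% (50.7 to 52.98). Peaks at starts of protein-coding genes were kept in 57.0% of cases, and those with non-coding starts alone in 36.2%. Density differed in the same direction, with medians of 3.58 and 2.86 times the mean in the first contrast and 3.06 and 2.28 in the second. Chromosomes differed little: the kept share ran from 25.4% on chromosome 15 to 31.8% on chromosome 18.

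The KO lists give sites that were called independently of the WT lists. A kept WT DMSO peak met a KO DMSO peak in 84.9% of cases and a KO talazoparib peak in 74.0%. For lost peaks the shares were 38.8% (38.1 to 39.5) and 26.3% (25.7 to 26.9), and for gained peaks 34.1% and 24.3%. Neither KO list held 53.4% of lost, 9.12% of kept and 58.6% of gained peaks. Restricted to a density of at least 2 times the mean, 48.2% of lost peaks met a KO talazoparib peak, and at a fold of at least 6 in both lists 11.8% did.

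The same treatment in KO cells kept 39.1% of DMSO peaks (38.6 to 39.6) against 28.2% in WT cells, and 41.2% of KO talazoparib peaks were gained against 47.8%. KO DMSO peaks were denser, with a median of 2.53 times the mean. The order of the genotypes depended on density. At 2 to 3 times the mean 33.9% of WT peaks (32.9 to 34.9) and 27.7% of KO peaks (27.0 to 28.4) were kept. At 6 times or more the shares were 82.6% (78.7 to 86.0) and 93.4% (91.9 to 94.6). The labels name different flow cells for WT and KO, so genotype and flow cell cannot be told apart, and the difference was not tested over libraries.

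At the level of genes, 18480 had a DMSO peak in the body or within 5 kb, and 6132 of these (33.2%) had no talazoparib peak. In the other direction 1821 of 14169 genes with a talazoparib peak (12.9%) had none with DMSO. The number gained was 3432 with equal numbers of best-scoring peaks, 5141 at a fold of at least 6 in both lists and 801 with at least 3 input tags. It was 1312 when that fold was asked of the talazoparib peaks alone, since the limit in both lists also removes DMSO peaks. The share lost was 51.4% at a fold of at least 6 in both lists, 27.15% with that fold asked of the DMSO peaks alone, and 50.8% with at least 3 input tags. Non-coding genes were lost more often than coding ones: 51.5% of lincRNA genes (49.0 to 54.1) and 41.4% of antisense genes (38.8 to 44.1), against 27.8% of 13110 protein-coding genes (27.1 to 28.6). Genes with 1 DMSO peak were lost in 43.6% of cases, those with 2 in 26.5% and those with 5 or more in 6.09%. Of the 12348 genes with a peak in both lists, 2247 had no DMSO peak that shared a base with a talazoparib peak, so their signal was listed at other positions. Neighbouring genes can share a peak, which then counts for each.

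Tdg itself was among the genes with the densest lost promoter peaks. Its DMSO peak spans chr10:82629628-82630254, over the annotated start at 82629828, and held 20.9 normalized tags (17.99 to 24.2), or 33.4 per kb, at a fold of 5.68 with 14 input tags. No talazoparib peak lay within 5 kb. The overlapping KO DMSO peak held 8.60 normalized tags, or 10.0 per kb, at a fold of 6.11 with 3.5 input tags. The pooled inputs held 38.1 M tags for WT DMSO and 24.8 M for KO DMSO. Tdg is also the gene altered in the KO cells, and the part of input in this difference was not tested. The KO talazoparib list held no peak at Tdg. Among promoter peaks of named protein-coding genes with no talazoparib peak, the Tdg peak came second in tags per kb to the one shared by Hjurp and Trpm8.

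Hjurp, the chaperone that loads the centromeric histone CENP-A, and Trpm8, which encodes the cold-sensing channel of sensory neurons, start back to back and share a peak at chr1:88277254-88277754. It held 29.6 normalized tags (26.1 to 33.5) in 500 bp, or 59.2 per kb, at a fold of 4.26 with 26.5 input tags. Both KO lists held a peak there. Of the other lost promoters, Olig2, a transcription factor of the oligodendrocyte and motor neuron lineages, had 27.0 normalized tags (29.8 per kb), and Arhgap21, a GTPase-activating protein gene, had 26.4 (29.4 per kb). Mif4gd, which takes part in histone mRNA translation, had 24.0 (29.7 per kb). Snf8, a subunit of the ESCRT-II sorting complex, had 14.5 (29.0 per kb), and Timm50, of the mitochondrial import channel, had 14.2 (28.4 per kb). The folds of these 5 peaks lay between 4.06 and 4.9, close to the threshold of 4, and all 5 met a KO DMSO peak.

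Of 7667 protein-coding genes with a DMSO peak centred in the promoter, 1679 had no talazoparib peak at all. Their promoters were not empty in the other genotype: 74.9% carried a promoter peak in the KO DMSO list and 57.5% in the KO talazoparib list. The reverse group of 438 genes, with a talazoparib promoter peak and no DMSO peak, was found again to a like extent, 73.7% in KO DMSO and 59.4% in KO talazoparib. Median tags per kb were 9.73 in the first group and 9.54 in the second.

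Ldb1, a cofactor of LIM-domain transcription factors, had the densest gained promoter peak. It spans chr19:46045072-46045572 and held 15.8 normalized tags (13.2 to 18.7), or 31.6 per kb, at a fold of 5.16 with 7.5 input tags. Ldb1 carried 5 peaks in the KO DMSO list and 6 in the KO talazoparib list, so the WT DMSO list was the only one of the 4 without a peak at this gene. Spata2l had 23.4 normalized tags (25.7 per kb) at its start. Cdkn2a, which encodes the cell cycle inhibitors p16INK4a and p19ARF, had 11.6 (23.2 per kb). Bloc1s3, for biogenesis of lysosome-related organelles, and Trappc6a, for vesicle tethering, start back to back and shared a peak of 14.9 (23.1 per kb). Nudc, a partner of dynein, had 14.3 (22.8 per kb), Slc16a6, of the monocarboxylate transporter family, 23.6 (22.7 per kb), and Klhl11, of the kelch-like family of ubiquitin ligase adaptors, 25.9 (22.7 per kb). Folds at these peaks ran from 4.25 to 7.02 on 5 to 13.5 input tags, and each but the Bloc1s3 and Trappc6a peak met a KO DMSO peak.

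Some genes had many peaks in 1 list and none in the other. Tbc1d16, a GTPase-activating protein for Rab proteins on chromosome 11, went from 10 DMSO peaks to 0. Capzb, the beta subunit of the actin capping protein, and Xxylt1, a xylosyltransferase that modifies Notch, each went from 9 to 0. Nfix, a transcription factor of the nuclear factor I family, and Nrp2, a receptor for semaphorins, went from 8 to 0. In KO cells all 5 had peaks with both treatments. In the order named these were 14, 9, 13, 6 and 8 with DMSO and 7, 5, 3, 4 and 5 with talazoparib. In the other direction Mark2, a kinase of cell polarity, and Olfm2, a secreted olfactomedin protein, went from 0 to 4. Anks1b, a synaptic scaffold protein, Arhgap26, also a GTPase-activating protein gene, and Astl, an egg protease, went from 0 to 3. In KO cells these 5 had fewer peaks with talazoparib than with DMSO, unlike in WT cells. In the order named the KO counts were 3, 3, 2, 5 and 3 with DMSO and 1, 2, 0, 1 and 1 with talazoparib.

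The genes of the lists below are protein-coding, apart from some imprinted ones, so each list is to be read against the shares over all protein-coding genes: 27.8% of those with a DMSO peak were lost, and 10.1% of those with a talazoparib peak were gained. Among genes of base excision and single-strand break repair, 23 of 25 had a DMSO peak and 7 of these had none with talazoparib (30.4%, 15.6 to 50.9), while none was gained. DNA glycosylase genes, which act first in the pathway, were found in both classes. Lost were Tdg, the uracil glycosylase gene Smug1 with 4 DMSO peaks, and the oxidised-pyrimidine glycosylase genes Nthl1 (3) and Neil1 (1). Kept were Ung (4 peaks with DMSO and 2 with talazoparib), Mbd4 (3 and 2), Ogg1 (1 and 1), Mutyh (2 and 1), Neil2 (2 and 2) and Mpg (1 and 1). The other lost members were the end-processing enzyme gene Aptx (1), Tdp1, which clears 3′ protein adducts (2), and the scaffold gene Xrcc1 (2). The Xrcc1 peaks were weak, with 4.02 and 3.22 normalized tags, and lay in introns, whereas its promoter carried 35.6 in KO DMSO and 39.8 in KO talazoparib. Apex1, the AP endonuclease gene, had 2 and 2 peaks, and the ligase genes Lig1 and Lig3 1 and 1 each. Polb, the gap-filling polymerase gene, also had 1 and 1, but these did not overlap: the DMSO peak was intergenic and the talazoparib peak intronic. The Lig3 promoter held 6.55 normalized tags with DMSO (9.49 per kb) and 11.4 with talazoparib (10.6 per kb).

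Of the genes of the PARP family and ADP-ribose turnover, 1 of 17 with a DMSO peak was lost (5.88%, 1.05 to 27.0), namely Parp14, and 3 of the 19 with a talazoparib peak were gained. The interval of the lost share nearly reaches that of all protein-coding genes, and whether the list differs from them was not tested. The genes of the drug's 2 main targets differed at their starts. Parp1 carried a promoter peak with DMSO of 18.8 normalized tags (14.4 per kb, fold 5.53) and none with talazoparib, where its only peak was an intronic one of 5.25 (10.5 per kb) that overlapped a DMSO peak of 6.26 (12.5 per kb). Both KO lists held the Parp1 promoter peak, with 33.2 and 43.5 normalized tags. Parp2 had no DMSO peak and a promoter peak of 5.73 (9.15 per kb) with talazoparib, on 1.5 input tags. In KO cells the Parp2 promoter was listed with both treatments, at 18.9 and 27.0. Tnks2, a tankyrase gene, was gained at its promoter with 8.95 normalized tags (9.60 per kb) and Parp12 with 3.34 (6.68 per kb), on 2 and 1 input tags. Parg, which degrades ADP-ribose chains, went from 2 peaks to 1, Hpf1, which directs PARP1 to serine, kept 1, and Macrod1, an ADP-ribose hydrolase gene, went from 9 to 5.

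Homologous recombination and Fanconi genes, on which cells with trapped PARP depend, showed 7 of 27 lost (25.9%) and 3 gained. Lost members include Rad54l with 2 DMSO peaks, Rad52 with 1, Eme1 with 2, and the Fanconi genes Fanca with 3 and Fancf with 1. The gained ones are Brca2, with a promoter peak of 9.60 normalized tags (19.2 per kb), its partner Palb2 with 6.08 (12.2 per kb) and Xrcc2 with 14.4 (19.1 per kb). Brca1 was kept, with 2 peaks and 1. End joining genes lost 1 of 11 (9.09%, 1.62 to 37.7), Dclre1c. Their peaks numbered 15 with DMSO and 20 with talazoparib, with Xrcc5, a Ku subunit gene, and Nhej1, a ligation factor gene, each going from 1 to 3. Replication fork and checkpoint genes lost 5 of 25 (20.0%): Chek2, Rpa2, Clspn, Mcm3 and Cdc6, while Atr, Atm and Chek1 were kept. Of p53 and its targets 3 of 19 were lost (15.8%), among them the pro-apoptotic gene Bbc3, whose densest of 3 peaks held 29.3 normalized tags. Cdkn1a, the p53 target that halts the cell cycle, kept its promoter peak, with 9.83 and 9.07 normalized tags (12.2 and 14.5 per kb).

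Genes of DNA methylation and demethylation lost 3 of 20 (15.0%): Dnmt3a, a de novo methyltransferase gene, went from 5 peaks to 0, and Setdb1 and Mbd2 from 1 to 0. The densest of the Dnmt3a peaks held 3.68 normalized tags at a fold of 4. The TET genes were all kept by count, but Tet1 (6 peaks and 2) and Tet3 (2 and 1) had no DMSO peak that overlapped a talazoparib peak, while Tet2 had 2 that did. Trim28, a corepressor that guards methylation at imprints and repeats, kept its promoter signal, with 48.5 and 43.6 normalized tags (24.3 and 33.0 per kb).

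**Figure D3:**
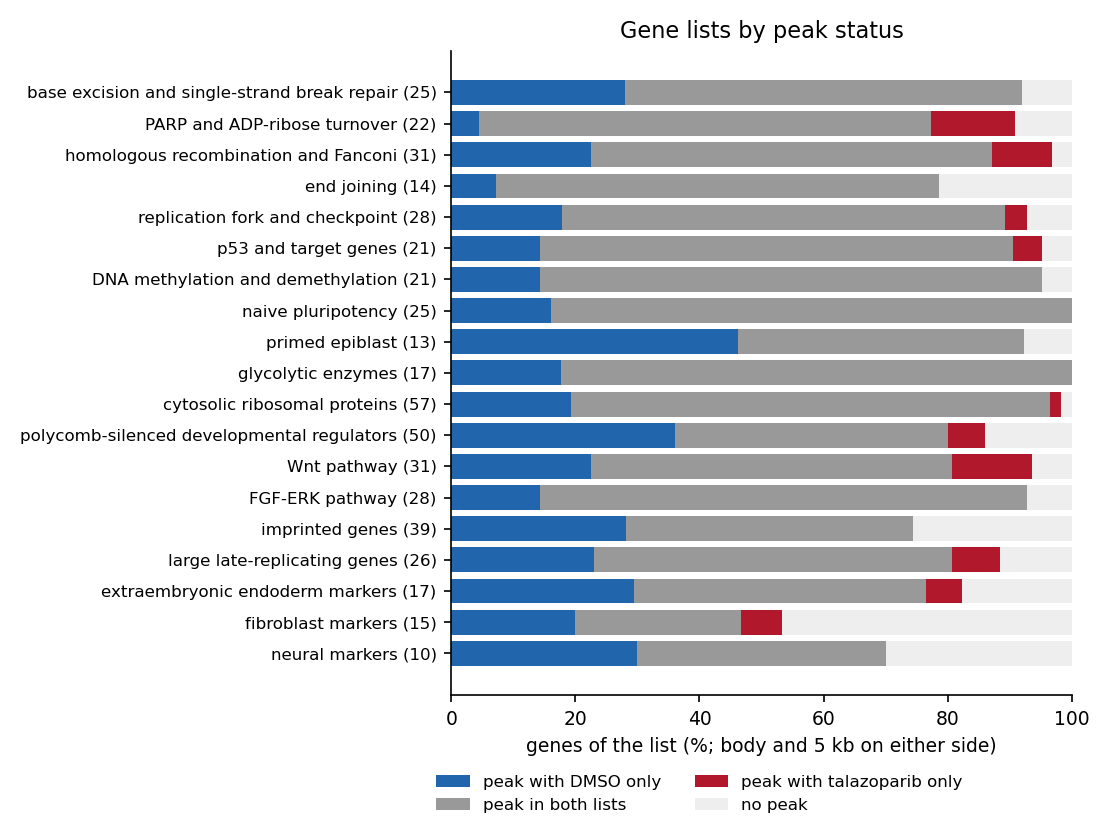
Genes of 19 lists by peak status in the WT lists, as a share of the list's genes on chromosomes 1 to 19 (their number is in brackets); a gene has a peak if 1 overlaps its body or the 5 kb on either side. Lost genes make up 6 of 13 primed epiblast and 18 of 50 polycomb-silenced genes, and 1 of 22 PARP and 1 of 14 end joining genes. Counted in the same way, with or without a DMSO peak, 3647 of all 20807 protein-coding genes were lost.

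Of the naive network that 2i medium sustains, 4 of 25 genes with a DMSO peak were lost (16.0%, 6.40 to 34.7): Sox2 (2 peaks), Sall4 (4), Prdm14 (1) and Dppa4 (1). The Sox2 promoter peak held 14.3 normalized tags (13.04 per kb) and the densest Sall4 peak 30.3 (12.96 per kb). Esrrb (11 and 6 peaks), Nanog (3 and 1) and Pou5f1 (5 and 2) were kept, and Klf2 and Klf4 each had 2 peaks with DMSO and 3 with talazoparib. Of the primed epiblast genes 6 of 12 were lost (50.0%, 25.4 to 74.6): Lef1 (5), Otx2 (2), Zic2 (2), Cdh2 (2), Lin28b (2) and Spry4 (1). The 2 intervals overlap, and whether the lists differ was not tested.

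Developmental regulators listed as polycomb-silenced, a state not measured here, lost 18 of 40 (45%, 30.7 to 60.2, against 27.8% of protein-coding genes). Among the lost were Pax2, Pax6, Six3, Tbx5, Nkx2-5 and Neurog2, and 3 regulators were gained (En1, Nkx6-1 and Wt1). Of the 80 DMSO peaks of the regulators on this list, 14 overlapped a talazoparib peak, where 28.2% of all DMSO peaks, 15.3% of intergenic and 15.2% of intronic ones did. Imprinted genes lost 11 of 29 (37.9%), including H19, Igf2, Peg10, Grb10 and Plagl1, with none gained. In the Wnt pathway 7 of 25 were lost (28.0%) and 4 gained: the effector gene Tcf7 had 2 talazoparib peaks where Lef1 had lost 5, and the antagonist genes Dkk1 and Sfrp1 were gained with Nkd1 while Sfrp2 was lost. FGF-ERK genes lost 4 of 26 (15.4%), namely Hras, Mapk3, Dusp4 and Spry4.

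Cytosolic ribosomal protein genes lost 11 of 55 (20.0%, 11.6 to 32.4), such as Rps14 (5 peaks), Rps15 (4) and Rplp0 (2), and had 111 peaks with DMSO and 57 with talazoparib, close to the proportion of the whole lists (28243 and 15343). Glycolytic enzyme genes lost 3 of 17 (17.6%), Pfkp, Eno2 and Ldhb, and went from 47 peaks to 28. Large late-replicating genes lost 6 of 21 (28.6%) and went from 48 peaks to 39, with Auts2 at 5 and 6, Magi2 at 3 and 5 and Fhit at 1 and 3. Markers of other cell types that a culture could hold were listed too: extraembryonic endoderm genes lost 5 of 13 (38.5%), fibroblast genes 3 of 7 and neural genes 3 of 7 (42.9% each). Several genes stand in more than 1 list, Lef1, Spry4 and Pax6 among them.

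The strength of the shared peaks was compared through their ranks. In 7851 pairs 1 DMSO peak met 1 talazoparib peak and no other, and each list's tags per kb were ranked within these pairs from 0 to 100. The ranks ran together, with a Spearman correlation of 0.80 over pairs, given as a description. The rank moved by less than 10 points in 46.4% of pairs and by 30 or more in 10.95%. Of the 785 pairs in the top 10% with DMSO, 62.3% were in the top 10% with talazoparib. Median tags per kb were 11.4 and 10.5, and the DMSO peak was the longer in 61.0% of pairs. Relative to the median log2 ratio of talazoparib over DMSO, which was -0.08, 562 pairs (7.16%) were at least 1.5 times higher and 565 (7.2%) at least 1.5 times lower.

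**Figure D4:**
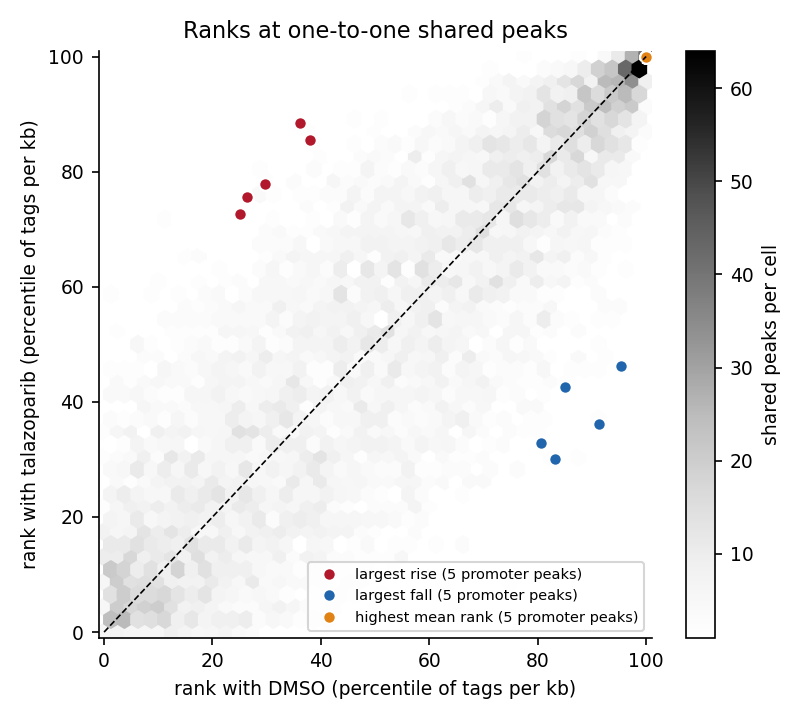
Percentile rank of normalized tags per kb with DMSO (x axis) and with talazoparib (y axis) in the 7851 one-to-one pairs, as counts per hexagon; coloured points are the promoter peaks with the 5 largest rises, the 5 largest falls and the 5 highest mean ranks. The points of highest mean rank lie in the upper right corner by the way they were chosen, and the dashed line marks equal ranks.

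The 5 shared promoters with the highest mean rank were chosen for being dense in both lists, so their values only describe them. Alkbh5, which removes N6-methyladenosine from RNA, had 46.4 normalized tags per kb with DMSO and 49.6 with talazoparib, a ratio of 1.07 (0.947 to 1.21). Cactin, a splicing-associated protein gene, had 50.5 and 48.6, Fkbp2, a prolyl isomerase gene of the endoplasmic reticulum, 42.8 and 48.7, Ocel1 44.1 and 46.8, and P4hb, which encodes protein disulfide isomerase, 41.8 and 46.0. Ratios over these 5 lay between 0.963 and 1.14.

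The largest rises and falls in rank are promoters whose peak changed length between the lists. Over all one-to-one pairs the log2 ratio of tags per kb hardly followed the length ratio, with a Spearman correlation of -0.067. Suv39h2, a histone H3 lysine 9 methyltransferase gene, rose from rank 36.2 to 88.5, with 9.80 and 20.2 tags per kb (ratio 2.06, 1.55 to 2.74) and a peak of 1510 bp with DMSO and 500 bp with talazoparib. Its normalized tags per peak were 14.8 and 10.1. Sgms1, a sphingomyelin synthase gene, rose from 37.9 to 85.4 (ratio 1.88) with lengths of 3357 and 1018 bp, and Serinc5 from 29.7 to 77.8 (1.77) with 2217 and 883 bp. Their normalized tags per peak also fell, from 33.5 to 19.1 at Sgms1 and from 20.3 to 14.3 at Serinc5. Siae, a sialic acid esterase gene, rose from 26.4 to 75.6 (1.76) with lengths of 1405 and 900 bp. D17Wsu92e rose from 25.01 to 72.6 (1.71) with lengths of 1510 and 1318 bp. Both had more tags per peak with talazoparib (12.4 and 14.0 at Siae, 13.1 and 19.5 at D17Wsu92e).

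Trim45, a ubiquitin ligase gene of the tripartite motif family, fell from rank 91.3 to 36.2, with 19.5 and 8.73 tags per kb (ratio 0.447, 0.349 to 0.569) and lengths of 1030 and 1546 bp. Its talazoparib peak rested on 0.5 input tags and its DMSO peak on 17.5. The zinc finger gene Zfp46 fell from 83.2 to 29.99 (ratio 0.482) and the peak shared by Ccdc159 and Tmem205 from 95.4 to 46.2 (0.447). Glul, which encodes glutamine synthetase, fell from 80.6 to 32.9 (0.515), and Mrps26, of the mitochondrial ribosome, from 85.1 to 42.5 (0.548). All 5 talazoparib peaks were longer than their DMSO partners, and all 10 rising and falling promoters met a peak in the KO DMSO list.

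The density ratio at shared peaks differed with CpG content. Where the DMSO peak had 8 or more CpG per 100 bp the median log2 ratio was 0.10, and 209 of 1924 pairs were at least 1.5 times above the overall median ratio against 49 below. With 1 to 2 CpG per 100 bp the median was -0.31, with 14 of 981 pairs above and 135 below. The lowest class did not continue this fall. With fewer than 1 CpG per 100 bp the median was -0.10, with 34 of 709 pairs above and 52 below. Over all pairs the Spearman correlation of the log2 ratio with CpG content was 0.32. Input moved the same way: median input density went from 0.685 to 0.718 times its genome mean in the CpG-rich pairs. It went from 0.428 to 0.216 in those with 1 to 2 CpG and from 0.417 to 0.235 in those with fewer than 1. The log2 ratios of IP and input correlated at 0.72. In the 2875 pairs with at least 5 input tags in both lists, a limit chosen after seeing the data, the correlation with CpG content was 0.083 and that with the input ratio 0.64. The part of input in the rank changes was not tested.

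**Figure D5:**
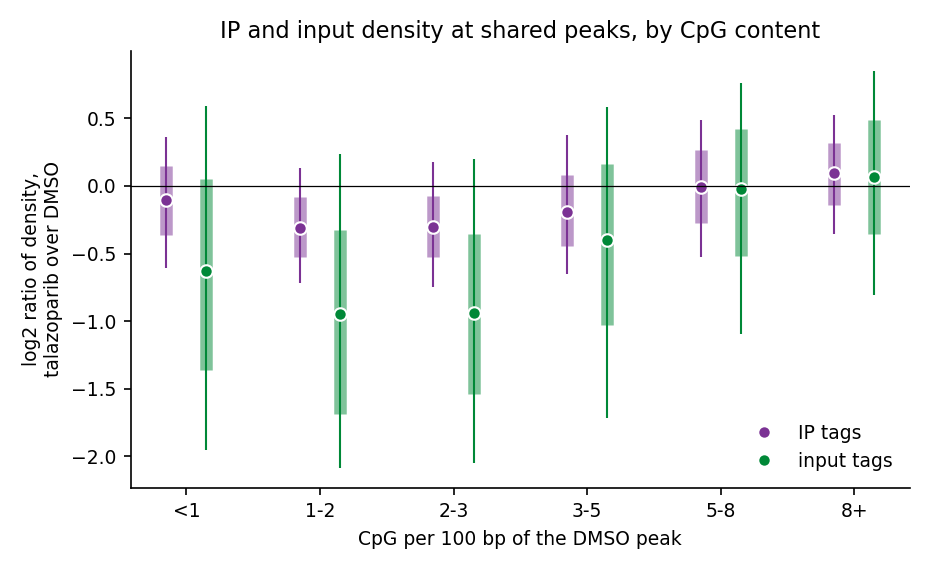
Log2 ratio of talazoparib over DMSO for IP density and input density at the 7851 one-to-one pairs, by CpG per 100 bp of the DMSO peak; points are medians, thick bars the middle 50% and thin lines the 10th to 90th percentile of pairs. The IP medians run from -0.31 at 1 to 2 CpG to 0.10 at 8 or more, and the input medians from -0.95 to 0.07. Below 1 CpG the medians are -0.10 and -0.63, so the lowest class breaks the order.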

How the data were processed

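Mouse ES cell SSB-seq peak lists were read as deposited, 1 per condition, each covering 3 IP libraries and 1 input library. Build mm10 and the tools HOMER 4.11, R 3.6, Picard 2.9.2 and Bowtie2 2.3.4.2 are listed, without settings, in the submitters' processing notes. Per the file headers, a peak's IP signal is the normalized tag count the authors computed per 10000000 tags, and the deposited control column is the input signal. A deposited column of another unit holds IP tags scaled to the input total. The deposited fold is a ratio, scaled IP over input tags. The authors' HOMER score ranked peaks in the alternative with equal numbers, and the deposited p-value of each peak (at most 8.32e-05) entered no result.

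IP totals were derived from the steps of low normalized counts and input totals from the ratio of scaled to normalized tags. Peaks of chromosomes 1 to 19 were matched by at least 1 bp, annotated by their centre with GENCODE M21 on GRCm38.p6, and assigned to genes with 5 kb flanks, using Python 3.11.15, pandas 2.3.3, NumPy 2.4.6 and SciPy 1.17.1. Coordinates are as deposited, and whether they count from 0 is not stated. The matching code was tested on simulated data. Input tags of 0.5 are single steps of that column.

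Members, the 19 gene lists (490 members on these chromosomes) and the alternatives were chosen with earlier results of these data known. Named genes are protein-coding: the 8 with the most tags per kb in a lost promoter peak and no talazoparib peak within 5 kb, the 8 in the reverse direction, the 5 largest rises, falls and highest mean ranks among shared promoter peaks of at least 10 normalized tags, the 5 with most peaks in 1 list and none in the other, list members, Tdg and Parp1. The leading one of each promoter group and Tdg give the sequences, taken from the RefSeq copy of GRCm38.p6: the 200 bases nearest the middle of the peak, or of the stretch both peaks share, that touch no annotated UTR. Alternatives changed the overlap, fold, input, density, promoter, gene window and chromosome limits.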

Additional observations from a re-analysis of the deposited data

How the results depend on the processing

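No paired analysis was possible because each list pools its 3 IP libraries and holds no value per library; leaving out a library was not possible either. Of 75 recomputed values 15 stayed and 60 moved. A share or the promoter difference stayed if within its counting interval, and a count if within 1.5 times. A correlation or CpG difference stayed if equal after rounding. None changed sign, but shares and counts cannot, so this bears only on the differences and correlations.

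At least 50% of each peak shared gave 20.8% of DMSO peaks kept, 61.8% of talazoparib peaks gained, a promoter excess of kept over lost peaks of 41.2 points (main value 39.96), 25.7% of gained peaks in promoters, a CpG difference of 4.26 (3.94) and 20.5% of lost peaks in the KO talazoparib list. A gap of up to 1 kb gave 32.0% kept, 42.0% gained, 36.1 points, 3.53 CpG and 31.5%. A fold of at least 6 in both lists gave 16.2% kept, 86.7% gained, 28.2 points, 24.3% in promoters, 51.4% of genes lost, 5141 gained, a rank correlation of 0.83, 2.83 CpG and 11.8%. With that fold in the counted list alone the values were 30.04%, 58.7%, 47.1 points, 13.9%, 27.2% of genes, 4.24 CpG and 24.6%. Equal numbers of best-scoring peaks gave 42.4%, 57.4%, 33.8 points, 22.9%, 26.1% of genes lost, 3432 gained and 33.0%. At least 3 input tags gave 24.1%, 22.3%, 46.2 points, 51.0%, 50.8% of genes lost, 801 gained, a correlation of 0.71, 4.897 CpG and 35.3%. Limiting both lists to 2 times the mean density gave 40.2%, 30.9%, 36.8 points, 39.9%, 36.1% of genes, 4.199 CpG and 48.2%. Adding chromosomes X and Y moved the CpG difference to 3.96. Promoters of 1 kb on either side gave 43.9 points and 28.1%, and protein-coding starts alone gave 17.4% of gained peaks in promoters. Gene bodies alone gave 36.9% of genes lost, and 1 kb around the start 40.4%. The rank correlation was 0.79 over all overlapping pairs, 0.74 without division by length and 0.68 with at least 5 input tags, the last chosen after seeing the data. Causes were not tested beyond the fewer peaks each stricter limit leaves. Few input tags limit every fold, most of all with talazoparib.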

Other observations

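Outside chromosomes 1 to 19, the mitochondrial genome carried 4 WT DMSO peaks with 19926 normalized tags over 8187 bp and 2 WT talazoparib peaks with 228.6 over 1129 bp. Without replicates no error can be given for this difference. In KO cells the mitochondrial sums were 60864 and 37988 over 14370 and 14540 bp. Chromosome X held 294 peaks with DMSO and 182 with talazoparib in WT cells.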
